A study of Homo sapiens with 4 samples.

Results

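The genes of the myostatin, activin and TGF-beta pathway were examined in ChIP-seq peak lists of RD cells, an established human line of fusion-negative rhabdomyosarcoma, a tumor of the skeletal muscle lineage. The 10 genes are MSTN, INHBA, TGFB1 and TGFB2 (ligands), ACVR2A and TGFBR2 (receptors), SMAD3 and SMAD7 (SMAD proteins), and FST and FSTL3 (secreted inhibitors). They were chosen by their pathway with earlier results of these lists known, out of 20007 protein-coding genes, so their own values are given as a description. For each gene the domain was the GENCODE gene body with 10 kb on each side, and every peak that overlapped it by at least 1 bp was counted.

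RD cells carried an shRNA with a scrambled sequence (control shSCR cells, genotype WT in the labels) or an shRNA against SKP2 (shSKP2), the part of the SCF ubiquitin ligase that recognizes its substrates. In each arm 1 library was made with an antibody against MYOD (CST), the transcription factor that starts the skeletal muscle program, and 1 with an antibody against H3K27ac (Active Motif), a histone acetylation found at promoters and enhancers in use. The 4 libraries thus form 4 groups of 1, a single cell line and a single shRNA were used, and there are no replicates whose spread a difference could be compared with. The lists hold no RNA or protein values, so the knockdown itself was not checked here. No test between the arms was possible, and all comparisons below are between libraries. A peak list from a pool of cells also does not separate more marked cells from more mark per cell.

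The H3K27ac lists held 25356 peaks in control shSCR cells and 38457 after SKP2 knockdown, and the MYOD lists 5814 and 8457. The lists do not give total read numbers. The lowest background at any summit, recovered from the deposited values and used here in place of depth, was 1.75 and 1.61 fragments for H3K27ac and 1.48 and 1.94 for MYOD. Because the knockdown H3K27ac list is longer and its peaks are wider (median 487 bp against 363 bp), most genes have more cover in it, and each count is therefore given beside the share of all genes. Of 6 muscle lineage markers, 4 had an H3K27ac peak in their domain in the control and 5 after knockdown, and 5 had a MYOD peak in both arms. DES, which encodes a muscle intermediate filament, had a MYOD peak but no H3K27ac peak in either arm. Of 6 markers of other cell types, 4 (CD3E, CDH5, EPCAM and PTPRC) had H3K27ac in both arms, with 0 to 1.72 kb over the list in the control and 0 to 2.46 kb after knockdown, while ALB and PECAM1 were at 0. Of these 6 markers only CD3E had a MYOD peak, in both arms. The part of other cell types in the values below was not tested.

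Myostatin (MSTN) and the activins are secreted ligands of the TGF-beta superfamily. They bind type II receptors such as ACVR2A, while TGF-beta itself binds TGFBR2. The type II receptor then activates a type I receptor, which phosphorylates SMAD2 and SMAD3. These enter the nucleus with SMAD4 and regulate transcription. Myostatin is best known for limiting the growth of skeletal muscle, and TGF-beta for opposing myoblast differentiation. FST (follistatin) and FSTL3 bind and block myostatin and activins outside the cell, and SMAD7 blocks the receptors inside it.

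MYOD binds E-boxes, short elements written CANNTG, and prefers those with the core CAGCTG or CAGGTG. The sequences of the MYOD peaks in the first introns of MSTN, TGFBR2 and SMAD3 are printed first, and these peaks are described below. They were read from hg38 on the plus strand, and capitals mark every CANNTG found on either strand. The MSTN peak (chr2:190060803-190061015) and the TGFBR2 peak (chr3:30628699-30628891) were called after SKP2 knockdown alone. The SMAD3 peak was called in both lists and is shown as in the control list (chr15:67148502-67148735).
MSTN intron 1: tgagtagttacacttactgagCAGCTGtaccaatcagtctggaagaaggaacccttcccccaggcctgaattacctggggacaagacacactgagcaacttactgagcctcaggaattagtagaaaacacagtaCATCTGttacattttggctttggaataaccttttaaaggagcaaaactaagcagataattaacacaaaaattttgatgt
TGFBR2 intron 1: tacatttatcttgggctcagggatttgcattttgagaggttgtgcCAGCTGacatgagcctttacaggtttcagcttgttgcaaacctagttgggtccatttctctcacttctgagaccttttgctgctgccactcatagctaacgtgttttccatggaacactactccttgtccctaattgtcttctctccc
SMAD3 intron 1: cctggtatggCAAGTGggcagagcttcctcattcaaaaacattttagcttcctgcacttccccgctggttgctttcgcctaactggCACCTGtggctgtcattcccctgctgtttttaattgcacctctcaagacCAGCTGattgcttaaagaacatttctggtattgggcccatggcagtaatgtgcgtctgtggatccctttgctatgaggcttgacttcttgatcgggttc
All 3 sequences hold 1 CAGCTG. In SMAD3 the element nearest the summit is CACCTG, the reverse strand of CAGGTG, which lay 1 bp from the control summit and at the knockdown summit.

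H3K27ac covered at least 1.5 times as much sequence after SKP2 knockdown in 6 of the 10 genes (TGFB1, TGFB2, ACVR2A, TGFBR2, SMAD3 and FSTL3), where 51.1% of all protein-coding genes did so. It covered at least 1.5 times less in 0 of 10, against 1.26% of all genes. FST and INHBA had no H3K27ac peak in either list, as did 29.2% of all genes. The remaining MSTN and SMAD7 moved by less than this fold, upwards for MSTN (1.44 times) and downwards for SMAD7 (0.774 times). SMAD3 (1.51 times) and FSTL3 (1.56 times) lay just past the limit and MSTN just short of it. Summed over the 10 domains, cover went from 12.3 kb to 20.4 kb, a ratio of 1.66 where the sum over all genes gave 1.96. Among the 7 genes with H3K27ac in both lists the median ratio was 1.56, and among the 11919 such genes in all it was 1.82.

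**Figure D1:**
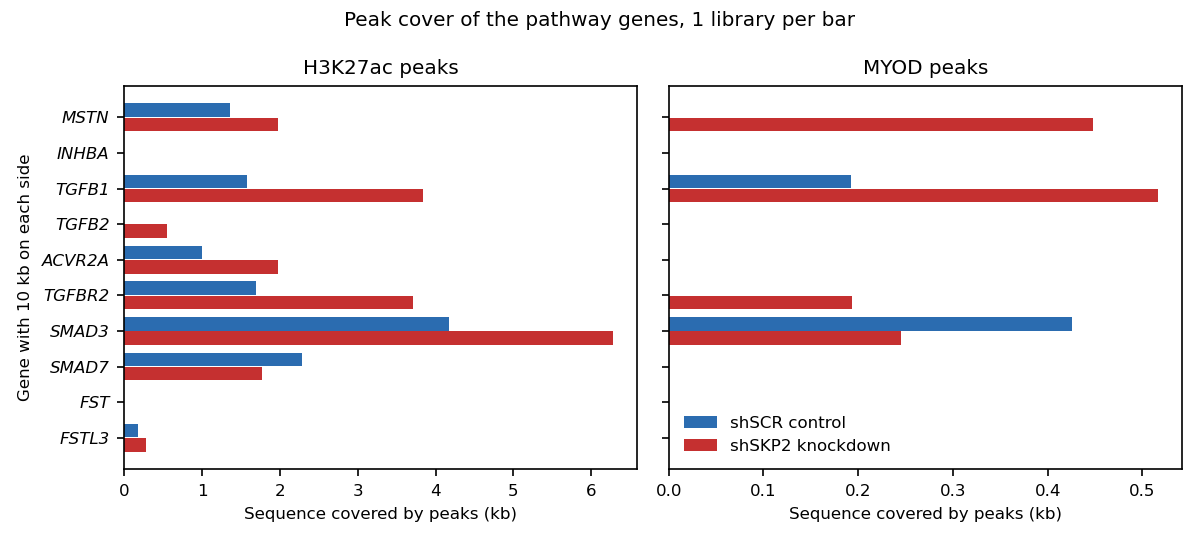
Horizontal bars show the sequence covered by H3K27ac peaks (left) and MYOD peaks (right), in kb, in the domain of each gene (gene body with 10 kb on each side) in control shSCR cells (blue) and after SKP2 knockdown (red), with 1 library per bar and hence no error bars. H3K27ac cover was higher after knockdown in 7 genes, from 0.283 kb in FSTL3 to 6.28 kb in SMAD3, lower in SMAD7, and 0 in both arms in INHBA and FST, and MYOD peaks lay in the domains of MSTN, TGFB1, TGFBR2 and SMAD3.

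MYOD peaks of the knockdown list alone lay in the domains of 3 of the 10 genes (MSTN, TGFB1 and TGFBR2), where 20.1% of all genes had such a peak. MYOD peaks of the control list alone lay in 2 of 10 (TGFB1 and SMAD3), against 8.92% of all genes. The MYOD peaks of these domains numbered 3 in the control list and 6 in the knockdown list, of which 2 and 5 were called in that list alone. In the whole MYOD lists 35.9% of the control peaks and 55.9% of the knockdown peaks were called in a single list. The lowest MYOD background of the knockdown list was 1.31 times that of the control list. Whether MYOD sites absent from the shorter control list lay just below its calling limit was not tested. The median domain of the 10 genes was 65.5 kb, against 47.5 kb for all genes, and a longer domain has more room for a peak. For H3K27ac, 8 of 27 control peaks and 20 of 37 knockdown peaks in the 10 domains were called in that list alone, where the whole lists gave 13.6% and 48.6%. Of the 20 knockdown-only H3K27ac peaks, 14 had their summit in an intron of one of these genes and 1 lay within 2 kb of the TSS of one of the 10. A further peak, in the TGFB1 domain, lay within 2 kb of the TSS of CCDC97. Of the 8 control-only peaks, all had their summit in an intron. How often single-list peaks of the whole lists lie in introns or near a TSS was not counted, so nothing is read from these places.

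Kept peaks, those overlapped by at least 1 bp by a peak of the other list, were not uniformly wider after knockdown. Of the 17 kept knockdown H3K27ac peaks in the 10 domains, 11 were wider than the control peaks under them and 6 were narrower. Of all kept knockdown peaks 83.5% were wider. The knockdown-minus-control widths of the 6 ran from -159 bp (ACVR2A) to -4 bp (SMAD7), so some hardly differed. SMAD3 gave more of the 17 than any other gene. The fold over local background was higher in 13 of the 17, where 75.2% of all kept peaks had a higher fold. In 2 of the 17, at MSTN and in the TGFB1 domain, a single knockdown peak lay over 2 control peaks, as did 10.8% of all kept knockdown peaks. H3K27ac lay within 2 kb of the transcription start site (TSS) in both lists in 5 of the 10 genes (MSTN, ACVR2A, TGFBR2, SMAD3 and SMAD7), against 40.7% of all genes. In these windows the summed cover went from 3.65 kb to 4.83 kb, a ratio of 1.32 where all genes gave 1.80.

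**Figure D2:**
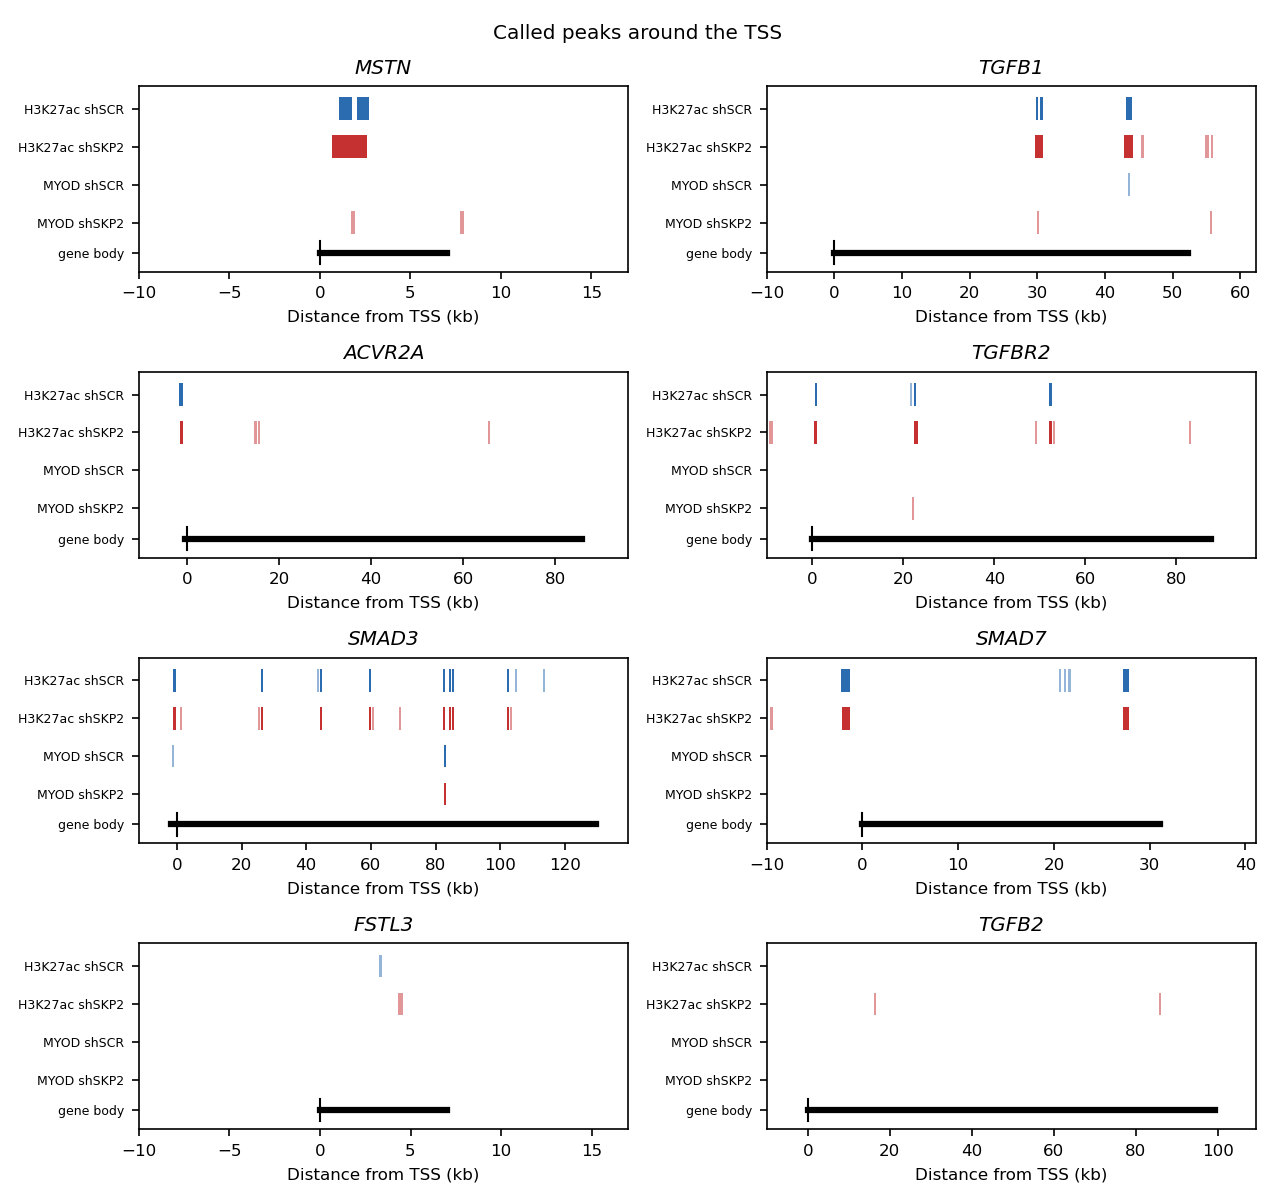
Each panel shows the called peaks in the domain of 1 gene by distance from its TSS in kb, positive in the direction of transcription, for H3K27ac and MYOD in control shSCR cells (blue) and after SKP2 knockdown (red), with the gene body as a black bar. Peaks called in that list alone are pale, and the narrowest are drawn at a minimum width so that they can be seen. INHBA and FST are not drawn because they have no peak, and the SMAD7 panel shows 3 control-only peaks between 20.6 and 21.7 kb with no knockdown peak beside them.

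Among the ligands, MSTN had more H3K27ac cover after SKP2 knockdown and MYOD peaks in that list alone. The gene lies on the minus strand of chromosome 2 (chr2:190055700-190062729), and the gene C2orf88 overlaps the region. The control H3K27ac list had 2 peaks there. The peak nearer the TSS was 673 bp wide, with 38 fragments at the summit over a local background of 10.9 (3.27-fold, -log10 p of 10.4). The other was 690 bp wide, with 47 fragments over 10.9 (4.05-fold, -log10 p of 16.0). After SKP2 knockdown a single peak of 1965 bp overlapped both, with 98 fragments over 19.0 (4.94-fold, -log10 p of 37.5). The fragments at the summit thus rose more than the fold did, since the local background was higher too. The peak ran from intron 1 across the gap between the control peaks and had its summit in coding exon 2, 2.31 kb from the TSS. H3K27ac cover of the domain was 1.36 kb in the control and 1.97 kb after knockdown, and within 2 kb of the TSS it was 0.673 kb and 1.33 kb.

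The MYOD list of control shSCR cells had no peak in the MSTN domain, and its nearest peak lay 23.2 kb from the gene body. After SKP2 knockdown 2 peaks were called. The peak in intron 1, printed above, had its summit 1.86 kb from the TSS, with 24 fragments over a background of 3.89 (5.11-fold, -log10 p of 12.1). This summit fell into the gap of 278 bp between the control H3K27ac peaks, which the knockdown H3K27ac peak filled. The other peak lay downstream of the gene (chr2:190054761-190054995), with 27 fragments over 3.57 (6.13-fold, -log10 p of 15.5). The nearest H3K27ac peak lay 5006 bp away in the control list and 5098 bp away in the knockdown list. A CAGGTG lay 2 bp from its summit.

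TGFB1 encodes TGF-beta 1, and all of its peaks lay in or beside other genes. The annotated gene body (chr19:41301587-41353922, minus strand) is much longer than the canonical transcript, and no peak of any list lay within that transcript or within 2 kb of its TSS. H3K27ac cover of the domain was 1.58 kb in the control and 3.84 kb after knockdown, with 3 and 5 peaks. The peak over the 5′ UTR of CCDC97, at the start of that gene, was kept, with a fold of 4.94 in the control and 4.92 after knockdown and a width of 937 and 1345 bp. Over the last exon of CCDC97, 2 control peaks of 459 and 181 bp (3.07-fold each) were overlapped by a single knockdown peak of 1145 bp (6.17-fold, 48 fragments over 6.95). The other knockdown-only peaks lay beside the CCDC97 start (417 bp, 4.85-fold) and in intron 10 of HNRNPUL1 (428 and 505 bp, 3.78-fold and 4.00-fold).

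In the same domain MYOD was called at the start of CCDC97 in the control list alone (4.21-fold, 12 fragments over 2.09, -log10 p of 6.47). It was called in the knockdown list alone over the last exon of CCDC97 (3.52-fold, 11 fragments over 2.41, -log10 p of 5.06) and in HNRNPUL1 (3.99-fold, 15 fragments over 3.01, -log10 p of 6.88). All 3 are among the weaker peaks of their lists, whose median -log10 p was 12.0 in the control and 11.2 after knockdown. The summit over the last exon of CCDC97 fell into a gap of 342 bp between the 2 control H3K27ac peaks. These values describe the region and are not assigned to TGFB1 rather than to CCDC97 or HNRNPUL1.

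TGFB2, which encodes TGF-beta 2, had no H3K27ac peak in the control and 0.551 kb after knockdown. This came from a peak of 265 bp in intron 1 (8 fragments over 1.61, -log10 p of 4.32) and a peak of 286 bp in intron 2 (12 fragments over 2.59, -log10 p of 5.46). Both are near the lowest values of the list, and neither TGFB2 nor INHBA had a MYOD peak in its domain. INHBA, which encodes the subunit of activin A, had no peak of either antibody in either arm. The nearest H3K27ac peak lay 181 kb from its gene body in both lists.

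**Figure D3:**
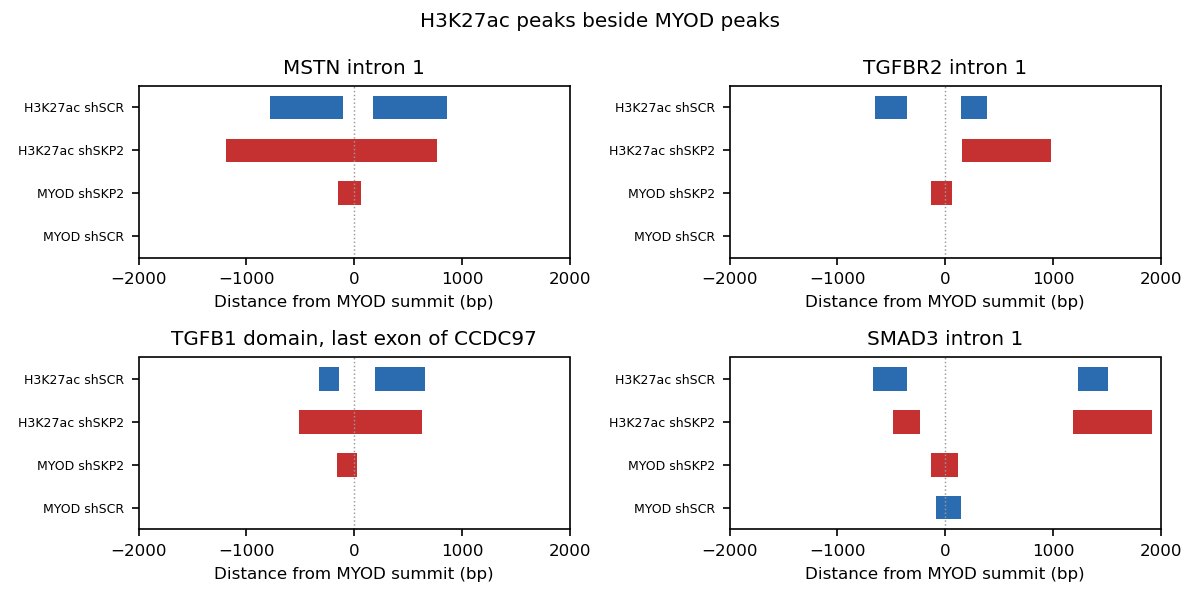
H3K27ac peaks within 2 kb of a MYOD summit (bars, control shSCR in blue and SKP2 knockdown in red) and the MYOD peaks themselves, by distance from the knockdown MYOD summit in bp, positive in the direction of transcription of the gene that names the domain. At MSTN, TGFBR2 and the last exon of CCDC97 the MYOD peak was called after knockdown alone, in gaps of 278, 502 and 342 bp between control H3K27ac peaks, while at SMAD3 MYOD was called in both lists.

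Among the receptors, TGFBR2 (chr3:30606601-30694142, plus strand) went from 4 to 8 H3K27ac peaks and from 1.70 kb to 3.71 kb of cover. TGFBR2 is the type II receptor that binds TGF-beta. Near its TSS the kept peak in intron 1 was 472 bp wide in the control and 679 bp after knockdown, and its fold was 3.43 and 2.89. The largest change of a kept peak was deeper in intron 1, 22.6 kb from the TSS. There the control peak was 240 bp wide with 22 fragments over 7.43 (2.73-fold), and the knockdown peak was 830 bp wide with 65 fragments over 11.0 (5.48-fold, -log10 p of 28.6). A second control peak 21.8 kb from the TSS (298 bp, 3.33-fold) had no overlapping knockdown peak. The kept peak in intron 3 was nearly the same in both lists, at 694 and 666 bp and 3.68-fold and 3.71-fold, with its summit at the same base. The 5 knockdown-only peaks lay upstream, in intron 3 and in intron 6, with folds of 2.80 to 3.86.

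A MYOD peak was called in intron 1 of TGFBR2 after SKP2 knockdown alone, 22.2 kb from the TSS, with 29 fragments over a background of 3.21 (7.12-fold, -log10 p of 18.6). By -log10 p it was the highest of the MYOD peaks that the 10 domains had in the knockdown list alone. The nearest control MYOD peak lay 347 kb from the gene body. The summit fell between 2 neighbouring control H3K27ac peaks of this intron, which were 502 bp apart. Unlike at MSTN, the knockdown H3K27ac peak did not cover the MYOD summit but began 156 bp and ended 985 bp from it, on the side of the gene's 3′ end. The CAGCTG of this peak lay 79 bp from the summit.

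ACVR2A, the type II receptor of activins and myostatin (chr2:147844517-147930826, plus strand), went from 1 to 4 H3K27ac peaks and from 0.997 kb to 1.98 kb of cover, and had no MYOD peak in either list. Its kept peak lay upstream, at -0.926 kb from the TSS in the control. It was 997 bp wide with 59 fragments over 5.88 in the control (8.72-fold), and 838 bp wide with 81 fragments over 11.8 after knockdown (6.41-fold). Here the fragments at the summit were more and the fold was lower, as the local background was higher. The 3 knockdown-only peaks lay in introns 1 and 4, with widths of 217 to 537 bp and folds of 3.92 to 4.72. All of the gain in cover came from these intronic peaks.

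SMAD3, the receptor-activated SMAD of the TGF-beta and activin branch, had the most peaks of the 10 genes and also the longest domain (151 kb, chr15:67063763-67195173 for the gene body, plus strand). H3K27ac cover was 4.17 kb in the control and 6.28 kb after knockdown, with 11 and 13 peaks. With lists of equal length the difference fell from 2.11 kb to 0.0860 kb and no longer passed 1.5 times. All 8 kept knockdown peaks had a higher fold than the control peak under them, and 6 were wider. The largest difference was 26.0 kb into intron 1, where the control peak had 20 fragments over 6.78 (2.70-fold) and the knockdown peak 38 over 6.80 (5.00-fold). Upstream of the TSS the fold was 4.12 in the control and 5.10 after knockdown. Control-only peaks were 3, in introns 1, 4 and 5, with folds of 2.56 to 3.45. Knockdown-only peaks were 5, in introns 1 and 4, with folds of 2.92 to 4.11.

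The MYOD peak in intron 1 of SMAD3, 83.0 kb from the TSS, was the only MYOD peak of the 10 domains called in both lists. It had 38 fragments over 3.88 in the control (7.99-fold, -log10 p of 25.0) and 31 over 3.48 after knockdown (7.14-fold, -log10 p of 19.5), and the summits lay 1 bp apart. H3K27ac was called on both sides of it in both arms and not over its summit. On the side away from the TSS the H3K27ac peak was 284 bp wide in the control (2.55-fold) and 738 bp wide after knockdown (3.48-fold). A second MYOD peak, upstream at -1.43 kb from the TSS, was called in the control alone with 11 fragments over 2.53 (3.40-fold, -log10 p of 4.84). Its -log10 p is below the limit of 5 that the methods of the study state, and without it the knockdown-minus-control difference in MYOD cover of SMAD3 is 0.0110 kb instead of -0.181 kb.

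SMAD7, the inhibitory SMAD (chr18:48919853-48950965, minus strand), was the only one of the 10 genes with less H3K27ac cover after SKP2 knockdown, at 2.29 kb in the control and 1.77 kb after. Of the 11919 genes with H3K27ac in both lists, 5.60% had less cover after knockdown by any amount. The cover that was absent came from intron 3. There 3 control peaks between 20.6 and 21.7 kb from the TSS, of 225 to 312 bp and 3.30-fold to 4.49-fold, had no knockdown peak over them, and the nearest lay 5381 bp away. Another peak in intron 3 was kept, with 24 fragments over 4.03 in the control (4.97-fold) and 11 over 2.21 after knockdown (3.73-fold). The peak upstream of the TSS went the other way. It was 873 bp wide with 32 fragments over 3.35 in the control (7.59-fold, -log10 p of 21.0), and 835 bp wide with 47 over 3.12 after knockdown (11.6-fold, -log10 p of 38.7). A knockdown-only peak of 301 bp lay upstream, at -9.46 kb from the TSS (4.60-fold). The knockdown-minus-control difference of -0.517 kb depended on the setting. It was -1.23 kb at a -log10 p of at least 10, -1.45 kb with lists of equal length and -0.780 kb with no flank, each past 1.5 times less, and with 50 kb on each side of the gene body its sign turned, to 0.130 kb. No MYOD peak lay in the domain, and the nearest was 697 kb from the gene body in the control list and 105 kb in the knockdown list.

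**Figure D4:**
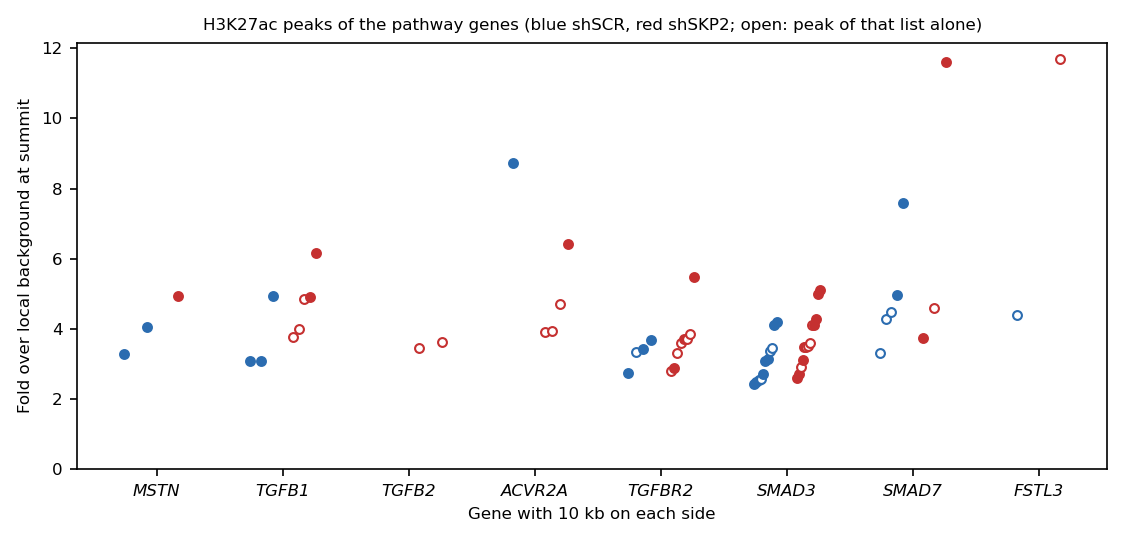
Each point is an H3K27ac peak, placed by gene on the x axis and by the deposited fold over local background at its summit on the y axis, for control shSCR cells (blue) and SKP2 knockdown (red). Filled points overlap a peak of the other list and open points do not. The highest folds are those of FSTL3 (11.7-fold, knockdown alone) and of the peak upstream of SMAD7 (11.6-fold after knockdown and 7.59-fold in the control).

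Of the secreted inhibitors, FSTL3 (chr19:676392-683392, plus strand) had 1 H3K27ac peak in each list, at different positions. The control peak was 181 bp wide in intron 2, with 16 fragments over 2.87 (4.39-fold, -log10 p of 7.93). The knockdown peak (chr19:680692-680974) lay 851 bp further on, with its summit in intron 3 of the canonical transcript. The peak also overlapped 4 annotated UTR features. It was 283 bp wide, with 56 fragments over 3.89 (11.7-fold, -log10 p of 44.7). By -log10 p it ranked 4 among the 18677 H3K27ac peaks called after knockdown alone, and 1589 in the whole knockdown list. The peak was narrow for its -log10 p. The 1588 knockdown H3K27ac peaks with at least its -log10 p had a median width of 1097 bp, and 13 of them (0.819%) were no wider than it, a comparison made after its values were seen. The nearest MYOD peak lay 65.4 kb from the FSTL3 gene body in the control list and 64.8 kb in the knockdown list. FST had no peak of either antibody, and the nearest H3K27ac peak lay 73.2 kb from its gene body in both lists.

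The MYOD summits at MSTN intron 1, TGFBR2 intron 1 and the last exon of CCDC97 share a position between control H3K27ac peaks. Among the 5 knockdown-only MYOD peaks of the 10 domains, 3 had their summit in a gap of at most 1000 bp between neighbouring control H3K27ac peaks. Among all 4730 knockdown-only MYOD peaks 218 did so (4.61%). The limit of 1000 bp was set after the gaps had been seen, so the share of all peaks is given only for scale. The knockdown H3K27ac peak covered the MYOD summit in 2 of the 3 cases.

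E-boxes were counted within 100 bp of each MYOD summit on both strands, and every CAGCTG or CAGGTG is also a CANNTG. Of the 5 knockdown-only peaks, 4 had a CAGCTG and the remaining peak, downstream of MSTN, had a CAGGTG. Of all knockdown-only MYOD peaks 53.3% had a CAGCTG (95% Wilson interval 51.8 to 54.7%) and 45.0% a CAGGTG. The peak that SMAD3 kept had both, where 70.6% of all kept control peaks had a CAGCTG and 45.1% a CAGGTG. Of the 2 control-only peaks, the one at the start of CCDC97 had no CANNTG in this window and the one upstream of SMAD3 had a CANNTG with another core, while 53.2% of all control-only peaks had a CAGCTG. These intervals cover counting error only, and with so few peaks in the domains nothing is read from the differences.

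A wider list of 73 further genes was set beside the 10. It holds ligands and receptors of the superfamily, SMADs and nuclear partners, extracellular and intracellular regulators, and target genes. H3K27ac cover was at least 1.5 times higher after SKP2 knockdown in 38 of them (52.1%) and at least 1.5 times lower in 3 (4.11%). The shares of all genes are those given above, 51.1% and 1.26%. The 3 lower genes were LTBP4, which binds latent TGF-beta in the matrix (1.81 kb to 1.20 kb), SKIL, a nuclear repressor of SMAD activity (0.943 kb to 0.607 kb), and CCN2, a TGF-beta target gene (0.308 kb to 0). A MYOD peak of the knockdown list alone lay in 21 of the 73 domains (28.8%), against 20.1% of all genes. A MYOD peak of the control list alone lay in 11 of the 73 (15.1%), against 8.92% of all genes. No H3K27ac peak was found in 17 (23.3%), against 29.2% of all genes.

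By role, more H3K27ac cover was found in 8 of 14 ligands and 8 of 11 receptors, and less in 0 of either group. Over all genes the shares were 51.1% and 1.26%, and with so few genes per role no role is read as apart from them. BMPR1A, a type I BMP receptor, went from 3.02 kb to 6.68 kb, and TGFBR3, the co-receptor betaglycan, from 0.821 kb to 4.15 kb with a knockdown-only MYOD peak in its first exon. Among the ligands BMP7 (0.784 kb to 2.49 kb) and GDF15 (1.08 kb to 2.78 kb) differed the most. A knockdown-only MYOD peak lay in 0 of the 14, against 20.1% of all genes, which is too few genes to read a difference from. Of 11 SMADs and nuclear partners 7 had more cover and 1 less. TGIF1, a corepressor of SMAD2 and SMAD3, went from 2.18 kb to 4.39 kb, while SMAD6, the inhibitory SMAD of the BMP branch, was at 0.768 kb and 0.566 kb.

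Of 17 extracellular inhibitors and proteins of latency or activation, 7 had more cover, 1 had less and 6 had no H3K27ac peak. The shares of all genes were 51.1%, 1.26% and 29.2%. They stand beside the 2 roles that follow as well, and no role is read as apart from them. LTBP1, which anchors latent TGF-beta in the matrix, had the largest difference of the 73 genes in kb (4.23 kb to 12.9 kb), in a domain of 473 kb. DCN, the proteoglycan decorin, which binds TGF-beta and myostatin, had no H3K27ac peak but a knockdown-only MYOD peak in intron 2 (8.06-fold, -log10 p of 24.1). Of 8 intracellular regulators 4 had more cover, among them SMURF1, a ubiquitin ligase that targets SMADs and receptors (0 to 1.57 kb). Of 12 target genes 4 had more and 1 less. Knockdown-only MYOD peaks lay in 6 of these 12 domains, against 20.1% of all genes, and control-only MYOD peaks in 4, against 8.92%. Both counts are too small to read a difference from.

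**Figure D5:**
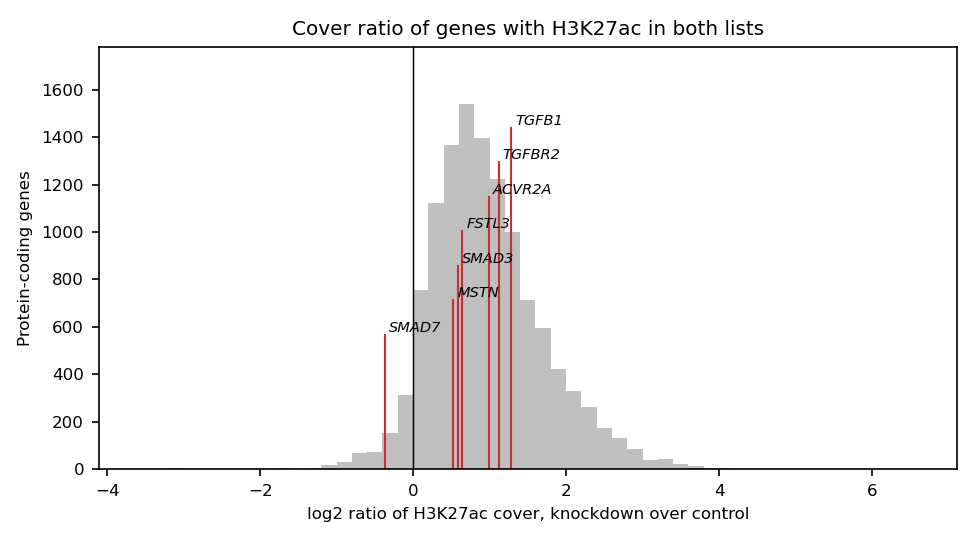
The grey histogram counts the 11919 protein-coding genes with H3K27ac in both lists by the log2 ratio of cover in their domains, SKP2 knockdown over control shSCR, in steps of 0.2, and the red lines mark the 7 of the 10 pathway genes that have a ratio (their height has no meaning). The median of all genes is a ratio of 1.82, 6 of the 7 lie to the right of equal cover and SMAD7 lies to the left of it.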

How the data were processed

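ChIP-seq of RD cells gave 4 libraries, grouped by title. Per the methods of the study, formaldehyde-fixed chromatin was digested with micrococcal nuclease, Drosophila chromatin was added as a spike-in, reads were aligned to GRCh38 (BWA 0.7.17 in the submitters' processing notes), peaks were called per library against input with MACS3, and problem regions were removed. Whether the spike-in entered the peak calls is not given in the sources used here. The values deposited by the authors are, per peak, the fold over local background, -log10 p, -log10 q and a score, and the last 2 were not used.

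Peaks on other contigs than the autosomes, X and Y were left out (1 peak of each H3K27ac list), and the rest were intersected with the gene domains from GENCODE release 44 (Python 3.11.15, numpy 2.4.6, pandas 2.3.3, pysam 0.24.0). The whole-number pileup and the background at each summit were recovered from the fold and the -log10 p (tolerance 0.001). Scripts were tested on simulated data. The genes, the wider list and the limits were chosen with earlier results of these data known. Named genes were the 10, per role of the wider list those with the 2 largest and 2 smallest cover differences, and those with the 5 highest MYOD peaks, of which the text names some. No test was run.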

Additional observations from a re-analysis of the deposited data

How the results depend on the processing

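Cover was recomputed with -log10 p of at least 5 or 10, with lists shortened to equal length, and with no flank or 50 kb on each side. It was also recomputed with whole peaks and, chosen after seeing the data, with the canonical transcript in place of the gene body. A reciprocal overlap of 50% was applied to decide which peaks were called in a single list. That setting cannot change cover, so it says nothing on the H3K27ac calls. The number of the 10 genes with at least 1.5 times more H3K27ac was 6 and ranged from 4 to 7. TGFB1, TGFBR2 and FSTL3 were among them under every alternative for cover. Of the 73 further genes, 38 had this call, with a range from 27 (lists of equal length) to 49 (50 kb flanks). The share of all genes was not recomputed, so the counts under the alternatives have no such share beside them. The number of the 10 genes with at least 1.5 times less H3K27ac was 0. It became 1, SMAD7, at a -log10 p of at least 10, with lists of equal length and with no flank. Genes with a knockdown-only MYOD peak fell from 3 to 2, without TGFB1, at a -log10 p of at least 10 and with lists of equal length. Genes with a control-only MYOD peak fell from 2 to 1 at a -log10 p of at least 5, to 0 at 10 and to 1 with the canonical transcript. The knockdown-minus-control difference changed sign for H3K27ac at ACVR2A (-0.159 kb at a -log10 p of at least 10) and SMAD7 (0.130 kb with 50 kb flanks). ACVR2A thereby lost its H3K27ac call. For MYOD the difference changed sign at TGFB1 (-0.192 kb with equal lists, -0.00100 kb with no flank) and SMAD3 (0.0110 kb at a -log10 p of at least 5 and of at least 10). TGFB2 had no H3K27ac peak left at a -log10 p of at least 10 or with equal lists, and with equal lists SMAD3 lost its H3K27ac call (0.0860 kb). The other alternatives changed no sign. No paired analysis was possible because each group has 1 library and no test was run.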
